A study of Mus musculus with 10 samples.

Results

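The genes described here are 10 that encode epithelial junction proteins and simple keratins, Cdh1, Cdh2, Epcam, Ocln, Tjp1, Cldn6, Cldn7, Krt8, Krt18 and Krt19. They were chosen by name from 22878 genes, with earlier results of these data known. All 10 were listed in every library. Their transcripts were counted by RNA-Seq (polyA RNA) in the R1 line of mouse ES cells and in embryoid bodies (EBs), which form when these cells grow without LIF in dishes to which they do not attach. The cells carried a short hairpin RNA against Smyd5, a lysine methyltransferase gene (shSmyd5), or against luciferase, which the mouse genome does not encode (shLuc, the control), both delivered by lentivirus under puromycin selection. The study tested several hairpins against Smyd5, and the labels do not say which one the libraries carry. Each line was sampled as undifferentiated ES cells and as EBs at 24 h, day 6, day 10 and day 14, with 1 library per condition and 10 in all. The ES cells had been passaged on gelatin with LIF and 1.5 µM of a GSK3 inhibitor to remove fibroblast feeders. The values are the read counts and the RPKM, which divides the reads by the length of the transcript and the size of the library.

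Epithelial cells hold together through E-cadherin, the product of Cdh1, and through tight junctions, in which claudins and occludin seal the space between neighbours and ZO-1 ties them to actin. Their cytoskeleton contains keratins, which polymerize only as pairs of a type II with a type I protein, and in simple epithelia and the early embryo the pair is keratin 8 with keratin 18 or 19. ES cells carry E-cadherin and EpCAM on their surface, while N-cadherin, the product of Cdh2, is known from neural and mesenchymal cells, and a change from E-cadherin to N-cadherin is the textbook sign of an epithelial to mesenchymal transition.

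Smyd5 was lower in shSmyd5 than in shLuc at all 5 stages. Its RPKM in ES cells, 24 h, day 6, day 10 and day 14 EBs was 4.51, 0.891, 0.492, 9.14 and 6.88 with shSmyd5, against 29.7, 10.7, 15.4, 25.0 and 13.1 with shLuc, so the gap was narrowest at day 14. Library sizes implied by the RPKM ranged from 5582708 reads (shLuc ES cells) to 64581722 (shLuc day 6 EBs). None of the stage-matched differences has a replicate check, and the 95% intervals beside them cover counting error only. Folds between the lines also followed base composition in some pairs, with a Spearman correlation of fold with GC content of -0.68 in ES cells and 0.58 at 24 h over genes, which are not independent. The keratins and Cldn7 are GC-rich (56.4% to 57.6% GC), so folds corrected for their trend with GC content and length (corrected folds) are given beside those of the keratins and claudins, and for the other genes where they change a call. In bulk libraries fewer cells of a type and less RNA per cell cannot be told apart.

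Over the course of differentiation the keratins and most tight junction genes rose by several powers of 2, Cdh2 rose as well, and Cdh1 and Epcam were high in every library. All 10 genes changed over the 5 stages (edgeR quasi-likelihood test on reads with the 2 lines as the repeats of each stage, adjusted p from 1.3e-05 for Krt18 to 0.0227 for Cdh1), beside 65.3% of the 12277 genes tested. In day 6 EBs 9 of the 10 were higher than in ES cells, beside 23.6% of all genes tested that were higher and 18.4% that were lower, and the tenth, Cldn7, had a log2 fold change of 1.15 ± 0.44 (SE, adjusted p = 0.0578). DESeq2 called Cldn7 there (adjusted p = 0.0421), as did edgeR without a filter on low genes (0.0495) or with a mean RPKM limit of 3 (0.0490). In day 14 EBs 8 were higher, beside 25.6% higher and 20.6% lower of all genes tested, and Cdh1 (0.04 ± 0.37) and Epcam (0.32 ± 0.34) did not pass. No gene of the 10 was lower at either time. Both comparisons use the same ES cell libraries.

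**Figure D1:**
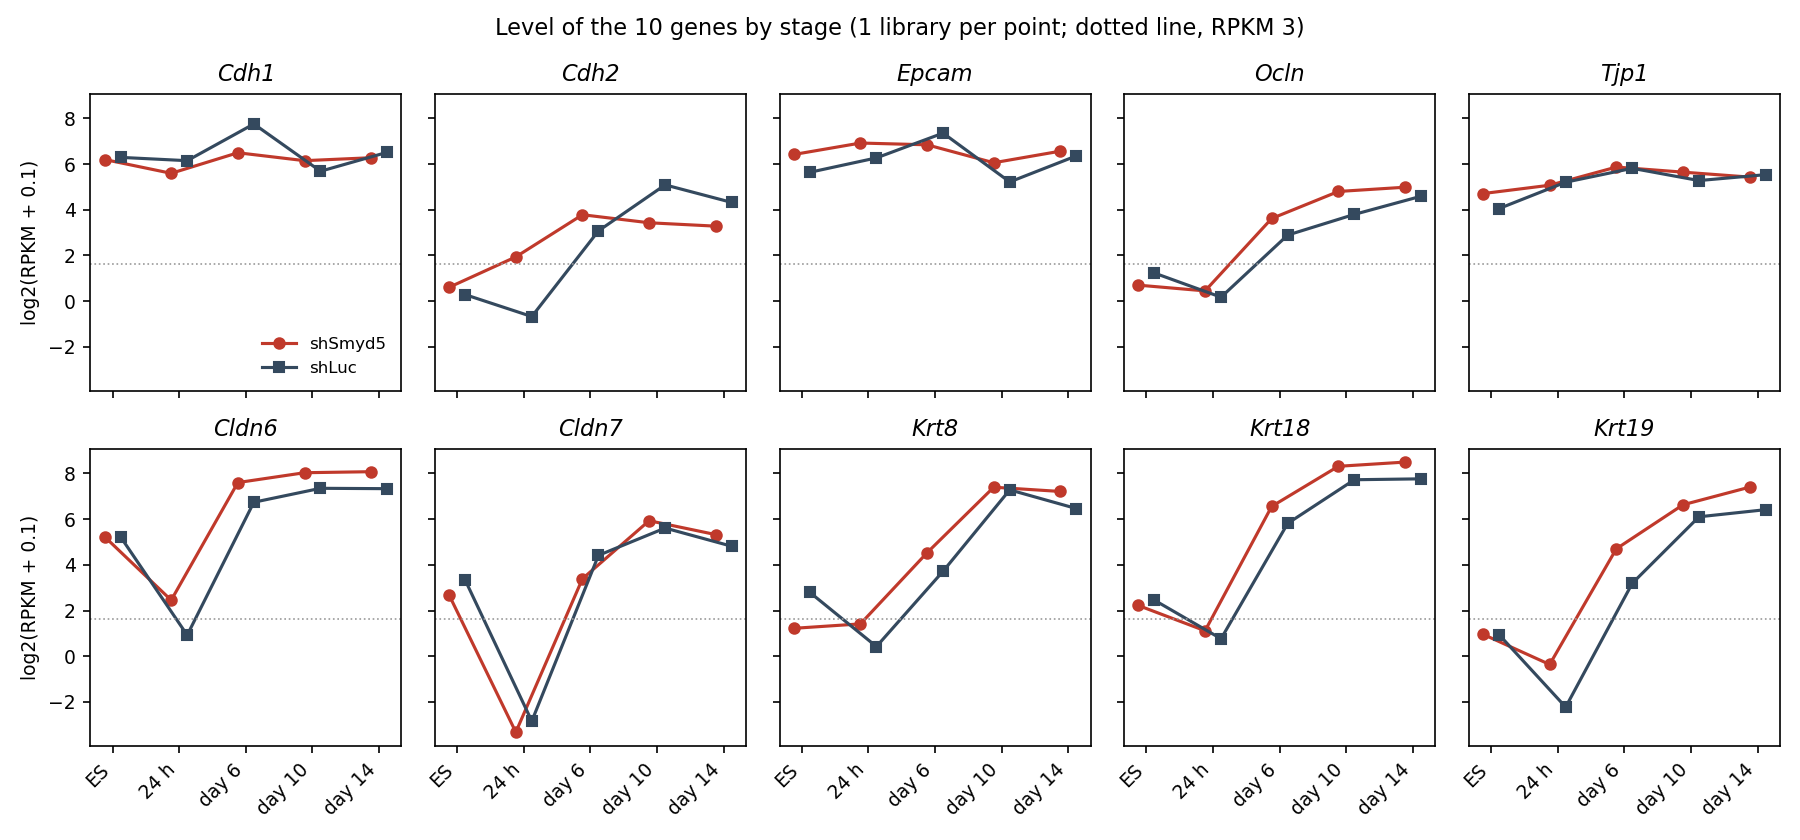
The level of each gene, as log2 of RPKM plus 0.1, is plotted by stage with 1 point per library, circles for shSmyd5 and squares for shLuc, and a dotted line at an RPKM of 3. Cldn7 drops to 0 and 0.0397 RPKM in the shSmyd5 and shLuc 24 h EBs, the 3 keratins climb from day 6 on, and Cdh1, Epcam and Tjp1 lie above the dotted line in all 10 libraries.

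**Figure D2:**
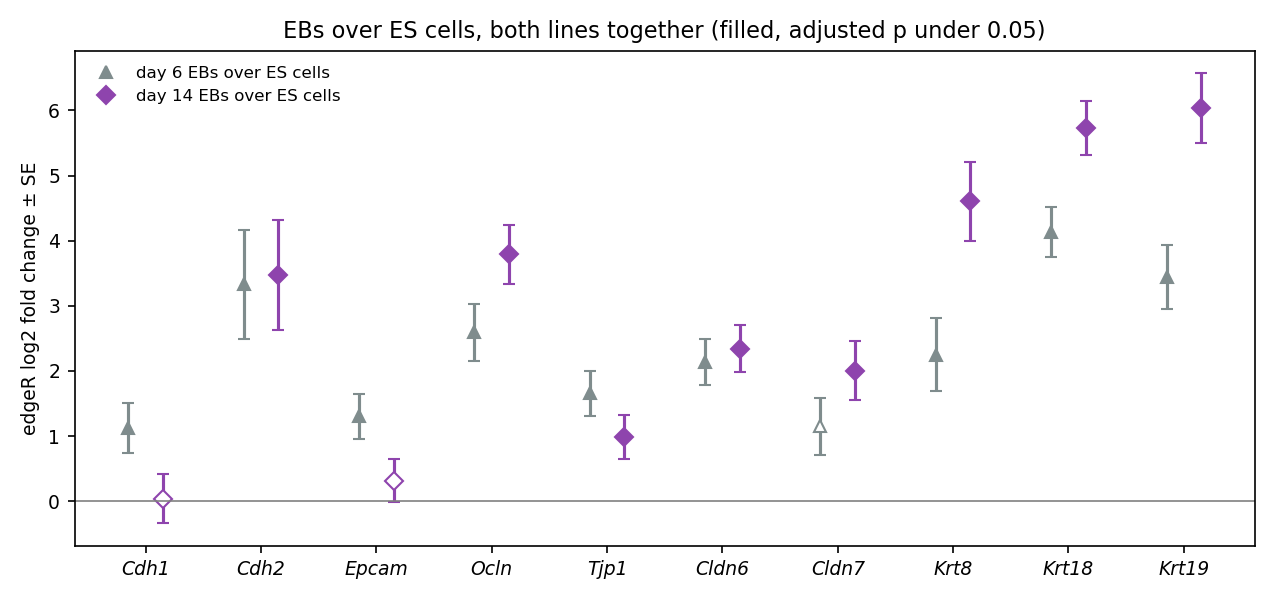
The edgeR log2 fold change over ES cells is shown for day 6 EBs (triangles) and day 14 EBs (diamonds) with its SE, from the fit of all 10 libraries, and filled symbols mark an adjusted p under 0.05. Krt19 (6.04) and Krt18 (5.73) have the highest values at day 14, and Cdh1 lies near 0.

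Cdh1, which encodes E-cadherin (mm9 chr8:109127251-109194146), was high in every library. Its RPKM in ES cells, 24 h, day 6, day 10 and day 14 EBs was 73.4, 48.2, 90.0, 70.8 and 77.4 with shSmyd5, against 78.3, 70.8, 216, 51.4 and 91.2 with shLuc. The shLuc day 6 library stood above the other 9, which lay between 48.2 and 91.2, and in shSmyd5 the highest stage was 1.87-fold over the lowest, against 4.20-fold in shLuc. At day 6 the log2 fold of shSmyd5 over shLuc was -1.26 (95% interval -1.28 to -1.24). With TMM or DESeq2 scaling of the reads it was -0.91 or -0.92, under 2-fold. The change of Cdh1 over the stages (adjusted p = 0.0227, edgeR) was lost without the shLuc day 6 library (0.188) or the shLuc day 10 library (0.0766), and with limma on all libraries (0.0609). Its rise at day 6 over ES cells (1.12 ± 0.38, adjusted p = 0.0362) also missed the threshold with limma (0.0830), without either ES cell library (0.202 without shLuc and 0.0689 without shSmyd5), without the shLuc day 6 library (0.259) or without any 1 of the 4 libraries of day 10 and day 14, where the lowest was 0.0501.

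Cdh2, which encodes N-cadherin (mm9 chr18:16747386-16967755), was near 1 RPKM in ES cells and followed a different course in each line. In ES cells, 24 h, day 6, day 10 and day 14 EBs its RPKM was 1.42, 3.73, 13.7, 10.7 and 9.63 with shSmyd5, against 1.12, 0.527, 8.34, 33.9 and 19.9 with shLuc. The shSmyd5 line was higher at 24 h and day 6 and lower at day 10 and day 14. At 24 h the shSmyd5 library held 725 reads of Cdh2 and the shLuc library 47, a log2 fold of 2.61 (2.40 to 3.28). The log2 fold was 0.71 (0.64 to 0.78) at day 6, -1.66 (-1.78 to -1.56) at day 10 and -1.04 (-1.13 to -0.96) at day 14. In shLuc, Cdh2 was 13.5-fold higher at day 6 than at 24 h and 4.03-fold higher at day 10 than at day 6, while in shSmyd5 it was 2.51-fold higher at 24 h than in ES cells, 3.59-fold higher at day 6 than at 24 h and 1.28-fold lower at day 10 than at day 6. Over both lines it rose by 3.33 ± 0.84 (log2, SE) in day 6 EBs over ES cells and by 3.47 ± 0.85 in day 14 EBs (edgeR, adjusted p = 0.0105 and 0.00743). Both calls were lost without the shLuc ES cells (adjusted p = 0.0861 at day 6 and 0.0659 at day 14) or the shSmyd5 ES cells (0.0635 and 0.0519), the first without the shSmyd5 day 6 EBs (0.0832) and the second without the shLuc day 14 EBs (0.0613). The change over the stages (adjusted p = 0.00973) was lost without the shLuc ES cells (0.0612). The Cdh2 gene overlaps Gm15485, a noncoding transcript of the opposite strand, and reads of the 2 cannot be told apart because no strand is known.

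The balance of Cdh1 to Cdh2, taken within each library and so free of the scaling between libraries, moved toward Cdh2 early in shSmyd5 and late in shLuc. Per length, Cdh1 exceeded Cdh2 by 51.5, 12.9, 6.60, 6.63 and 8.04 times in shSmyd5 ES cells, 24 h, day 6, day 10 and day 14 EBs, and by 70.0, 134, 25.9, 1.51 and 4.59 times in shLuc. In shSmyd5 the ratio was near its final level by day 6, and in shLuc it was highest at 24 h and lowest at day 10. Expressed as a share, Cdh2 made up 1.90%, 7.18%, 13.2%, 13.1% and 11.1% of the summed RPKM of both cadherins in shSmyd5, against 1.41%, 0.739%, 3.72%, 39.8% and 17.9% in shLuc. The log2 ratio of shSmyd5 less that of shLuc was -0.44 (-1.05 to 0.12) in ES cells, where the interval includes 0. It was -3.38 (-3.84 to -2.95) at 24 h and -1.97 (-2.05 to -1.90) at day 6, and then 2.13 (2.01 to 2.25) at day 10 and 0.81 (0.72 to 0.90) at day 14. Corrected for GC and length, the difference was -3.26 at 24 h and 2.15 at day 10. At 24 h the log2 fold between the lines was -0.55 for Cdh1 and 2.61 for Cdh2, so most of the difference lay in Cdh2, as it did at day 10 (0.46 and -1.66). At day 6 the split between the 2 genes depended on the scaling between libraries. By RPKM the larger share lay in Cdh1 (-1.26 and 0.71), and with TMM scaling it lay in Cdh2 (-0.91 and 1.06).

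**Figure D3:**
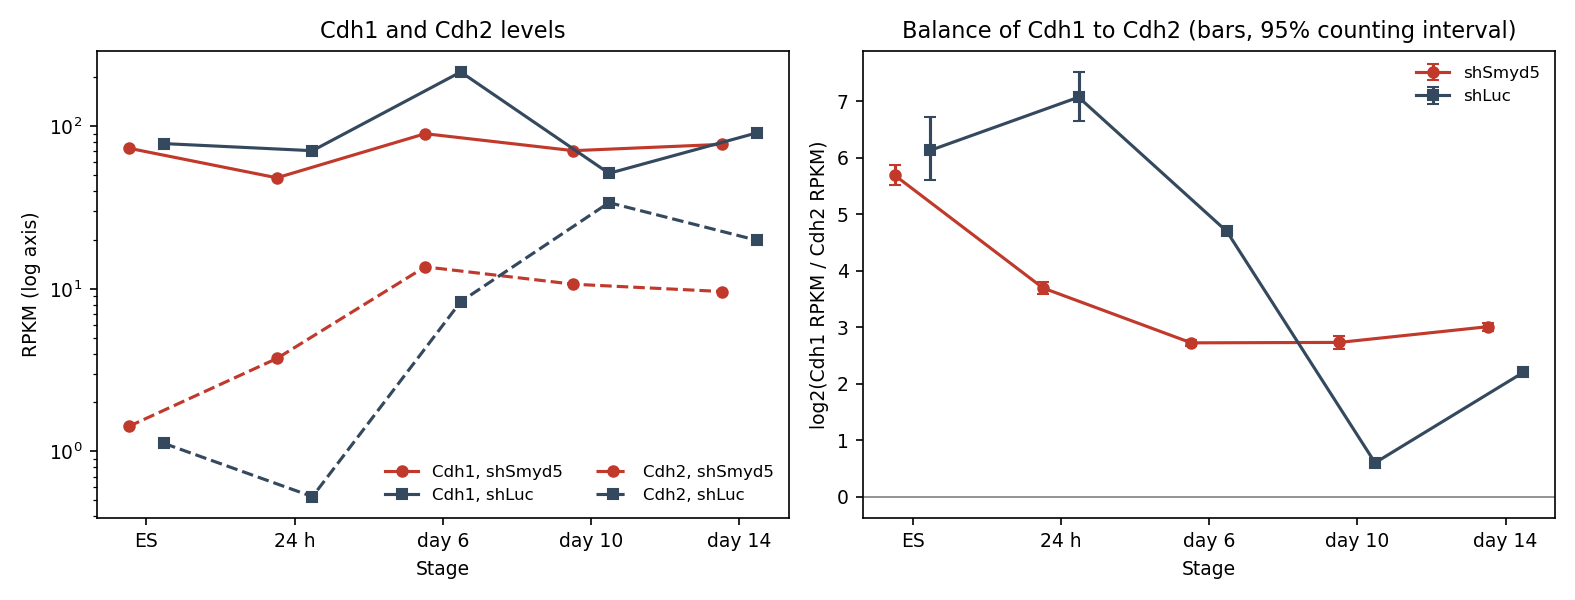
On the left the RPKM of Cdh1 (solid lines) and Cdh2 (dashed lines) is plotted by stage on a log axis, and on the right the log2 ratio of Cdh1 to Cdh2 in each library with its 95% counting interval, circles for shSmyd5 and squares for shLuc. The shSmyd5 ratio is lower at 24 h and day 6 (3.69 and 2.72 against 7.07 and 4.69 in shLuc) and higher at day 10 and day 14 (2.73 and 3.01 against 0.60 and 2.20).

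Genes of mesenchymal cells and repressors of Cdh1, 26 in all, were higher in older EBs. Of the 23 tested, 23 were higher in day 14 EBs than in ES cells (edgeR), beside 25.6% of all genes tested. At day 6 Sparc, a matrix glycoprotein (1197 RPKM in shSmyd5, 91.6 in shLuc), Pdgfra, a growth factor receptor (17.8 and 1.92), Snai1 and Cdh6, another cadherin, were at least 2-fold higher in shSmyd5, and Fn1, fibronectin, was lower, among 11 genes of the list with an RPKM of at least 3 (8.18% higher and 19.4% lower over all genes). At the later stages more of the list was lower than higher, with 3 of 22 higher and 8 lower at day 10 (3.15% and 6.51% of all genes) and 2 of 25 higher and 9 lower at day 14 (3.17% and 4.07%). At day 14 the homeobox gene Prrx1 was lower in shSmyd5 (0.504 RPKM) than in shLuc (5.09). The repressors that bind E-boxes of the Cdh1 promoter, picked from the list after its values had been seen, did not move together. Snai1 had an RPKM of 1.76, 5.78, 21.4, 24.3 and 45.9 over the 5 stages in shSmyd5, against 3.28, 2.23, 3.13, 5.11 and 9.31 in shLuc. Zeb1 and Zeb2 were lower in shSmyd5 at day 10 (5.99 and 3.60 RPKM, against 11.8 and 6.59) and at day 14 (7.52 and 5.73, against 16.1 and 13.0), as was Twist1 at day 10 (6.05 and 15.5) and at day 14 (8.62 and 38.0). Snai2 stood at 22.9 in shSmyd5 and 15.3 in shLuc at day 10 and at 25.4 and 42.4 at day 14. At day 6 Snai1 was the one of these 5 with an RPKM of at least 3 and a 2-fold difference between the lines. Cdh1 was lower in shSmyd5 at day 6 and higher at day 10 (70.8 RPKM, against 51.4 in shLuc), and a link to Snai1 was not tested.

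Markers of other cell types also differed between the lines, and their part in the cadherin and keratin results was not tested. Some lists share genes, so their counts and sums are not independent. Pdgfra is in the mesenchymal and endoderm lists, and Col1a1, Col1a2, Col3a1 and S100a4 are in the mesenchymal and feeder fibroblast lists. At day 6 the 20 markers of primitive and visceral endoderm summed to 1341 RPKM in shSmyd5 and 236 in shLuc. Of the 18 with an RPKM of at least 3, 16 were at least 2-fold higher in shSmyd5 and 0 lower, beside 8.18% and 19.4% of all genes. They included the transcription factor Sox17 (36.8 and 1.29) and the laminin Lama1 (46.0 and 2.43). The sums of the 20 endoderm markers were 3178 and 2674 at day 10 and 6227 and 5893 at day 14. The 15 pluripotency markers summed to 747 RPKM in shSmyd5 day 6 EBs and 1262 in shLuc. The 14 neural markers listed summed to 23.7 and 13.5 RPKM in shSmyd5 at day 10 and day 14, against 171 and 154 in shLuc. Of the 11 with an RPKM of at least 3 at day 10, 0 were at least 2-fold higher in shSmyd5 and 10 lower, beside 3.15% and 6.51% of all genes. Among them Zic1 stood at 0.248 RPKM in shSmyd5 and 27.5 in shLuc, and Fabp7 at 0.336 and 9.05. Feeder fibroblast markers summed to between 3.67 and 7.30 RPKM in the libraries of ES cells, 24 h and day 6 EBs, and reached 221 in shSmyd5 and 559.6 in shLuc at day 10 and 1923 and 3429 at day 14, led by the collagens Col1a1, Col1a2 and Col3a1. At day 6, 0 of the 8 neural markers with an RPKM of at least 3 were at least 2-fold higher in shSmyd5 and 5 lower, beside 8.18% and 19.4% of all genes.

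Epcam, which encodes the epithelial adhesion molecule EpCAM (mm9 chr17:88035319-88050446), was among the most abundant of the 10 genes in ES cells and 24 h EBs. In ES cells, 24 h, day 6, day 10 and day 14 EBs its RPKM was 85.4, 121, 115, 66.5 and 94.5 with shSmyd5, against 49.7, 77.0, 163, 37.1 and 81.9 with shLuc. The shSmyd5 line was higher at all stages but day 6, by less than 2-fold each time. The log2 folds were 0.78 (0.66 to 0.91) in ES cells and 0.84 (0.76 to 0.93) at day 10, and corrected for GC and length the ES cell value was 1.02, past 2-fold. Epcam rose by 1.30 ± 0.34 (log2, SE) in day 6 EBs over ES cells (edgeR, adjusted p = 0.0128), a call lost without the shLuc ES cells (0.113) or the shLuc day 6 EBs (0.0987). Epcam and Cdh1 were alike in that both were lower at day 10 than at day 6, by 1.72-fold and 1.27-fold in shSmyd5 and by 4.40-fold and 4.20-fold in shLuc.

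Ocln, which encodes the tight junction protein occludin (mm9 chr13:101266462-101322673), was low until 24 h and rose thereafter in both lines. Its RPKM over the 5 stages was 1.52, 1.26, 12.2, 27.7 and 31.6 with shSmyd5, against 2.24, 1.03, 7.32, 13.8 and 24.0 with shLuc. The order of the stages was the same in both lines, and from day 6 on shSmyd5 was the higher one. Day 14 EBs exceeded ES cells by 3.79 ± 0.45 (log2, SE) over both lines (edgeR, adjusted p = 0.00016). At day 10 the log2 fold of shSmyd5 over shLuc was 1.00 (0.90 to 1.12), on the 2-fold line, and 0.86 when corrected for GC and length. Tjp1, which encodes the scaffold ZO-1 (mm9 chr7:72441051-72516125), varied least of the tight junction genes. Its RPKM was 26.0, 33.6, 58.3, 50.0 and 43.0 in shSmyd5, against 16.5, 36.8, 56.1, 38.7 and 46.3 in shLuc, with ES cells lowest and day 6 highest in both. The lines were within 1.58-fold of each other at every stage. Tjp1 rose by 1.66 ± 0.34 in day 6 EBs over ES cells (adjusted p = 0.00449) and by 0.99 ± 0.34 in day 14 EBs (adjusted p = 0.0345). The day 14 call was lost with no filter on low genes (0.0517), without the shLuc ES cells (0.219), any 1 of the day 10 libraries (0.0675 without shLuc, 0.0669 without shSmyd5) or of the day 14 libraries (0.233 without shLuc, 0.0712 without shSmyd5), and the change over the stages (0.0165) was lost without the shLuc ES cells (0.0775) or the shSmyd5 day 6 EBs (0.0513).

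The claudins dipped at 24 h and came back above their ES cell level. Cldn6, a claudin of the early embryo (mm9 chr17:23816332-23819413), had an RPKM over the 5 stages of 37.5, 5.37, 194, 261 and 269.8 in shSmyd5, against 37.3, 1.80, 107, 163 and 161 in shLuc. The ES cell values did not differ beyond counting error (log2 fold 0.01, -0.16 to 0.18), and shSmyd5 was higher at each of the 4 EB stages. The 24 h value was 6.87-fold below ES cells in shSmyd5 and 19.7-fold below in shLuc, and the log2 fold between the lines at that time was 1.53 (1.16 to 2.03). Corrected for GC and length, these log2 changes over ES cells were -2.57 in shSmyd5 and -3.59 in shLuc, where 42.7% of all genes were at least 2-fold lower at 24 h, and the fold between the lines was 1.13. From day 6 on the log2 fold of shSmyd5 over shLuc lay between 0.68 and 0.86, and between 0.62 and 0.74 when corrected. Day 14 EBs exceeded ES cells by 2.34 ± 0.36 (log2, SE; edgeR, adjusted p = 0.000608).

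Cldn7, a claudin of many epithelia (mm9 chr11:69778281-69781387), was all but absent at 24 h. Its RPKM was 6.28, 0, 10.4, 60.9 and 39.9 over the 5 stages in shSmyd5, against 9.97, 0.0397, 21.2, 48.7 and 28.0 in shLuc. The 24 h libraries held 0 reads (shSmyd5) and 1 read (shLuc), at or under a floor of 3 reads per library, so no fold between the lines is given there. With that floor in place of the 0 reads, Cldn7 in shSmyd5 was 115-fold lower at 24 h than in ES cells. It was 190-fold higher at day 6 than at 24 h. These 2 values leave out counting error. The counting intervals put the changes at no less than 92.9-fold (log2 change of -6.54) and 154-fold. In shLuc the log2 change at 24 h over ES cells was -6.17, with a counting interval of -13.30 to -5.45, and -4.98 when corrected for GC and length. The lines changed places during the course, with shSmyd5 lower in ES cells (-0.66, -1.04 to -0.28) and at day 6 (-1.02, -1.15 to -0.91) and higher at day 10 (0.32, 0.22 to 0.43) and day 14 (0.51, 0.41 to 0.61). The corrected values were -0.23, -1.24, 0.51 and 0.36 at these 4 stages, with the same signs. The day 6 value was -0.68 with TMM scaling. Day 14 EBs exceeded ES cells by 2.00 ± 0.45 (log2, SE; edgeR, adjusted p = 0.0051), a call lost without the shSmyd5 ES cells (0.0539) or the shSmyd5 day 14 EBs (0.0711). The ratio of Cldn6 to Cldn7 at day 6 was 18.7 in shSmyd5 and 5.03 in shLuc, a log2 difference of 1.89 (1.77 to 2.01), against 0.67 (0.25 to 1.09) in ES cells, 0.36 (0.25 to 0.48) at day 10 and 0.23 (0.13 to 0.34) at day 14.

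Krt8, the type II keratin of the set (mm9 chr15:101827142-101834773), lies beside Krt18, its type I partner (chr15:101858647-101862457), on the opposite strand. Krt8 had an RPKM over the 5 stages of 2.23, 2.57, 23.0, 168 and 148 in shSmyd5, against 6.85, 1.24, 13.1, 155 and 88.1 in shLuc. Krt18 had 4.56, 2.06, 94.0, 318 and 361 in shSmyd5, against 5.37, 1.60, 56.1, 211 and 217 in shLuc. Both were under 7 RPKM in ES cells and at 24 h and over 80 RPKM in all 4 libraries of day 10 and day 14. Krt19, a further type I keratin (mm9 chr11:100002124-100009979), had 1.85, 0.679, 25.9, 98.8 and 169 in shSmyd5, against 1.83, 0.114, 9.06, 68.6 and 85.2 in shLuc, and its shLuc 24 h value stood on 3 reads. It was the lowest of the 3 keratins at 24 h in both lines.

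In day 14 EBs over ES cells, Krt19 rose by 6.04 ± 0.53, Krt18 by 5.73 ± 0.42 and Krt8 by 4.60 ± 0.61 (log2, SE; edgeR, adjusted p = 3.4e-05, 2.8e-05 and 0.000268). In day 6 EBs the rises were 3.44 ± 0.49, 4.13 ± 0.39 and 2.25 ± 0.57, and of these the call of Krt8 (adjusted p = 0.0106) was lost without the shSmyd5 day 6 EBs (0.0714). At day 6 Krt8 had the smallest rise of the 3. The ratio of Krt18 to Krt8 was 2.04, 0.804, 4.09, 1.89 and 2.44 over the 5 stages in shSmyd5, against 0.785, 1.29, 4.29, 1.36 and 2.47 in shLuc. It was highest at day 6 in both lines, and the lines did not differ beyond counting error at day 6 (log2 difference -0.07, -0.17 to 0.03) or at day 14 (-0.02, -0.07 to 0.04). In ES cells the ratio was higher in shSmyd5 (1.38, 0.73 to 2.04), through Krt8. Summed over the 3 keratins, the RPKM was 8.64, 5.31, 143, 585 and 678 in shSmyd5, against 14.0, 2.95, 78.3, 435 and 390.4 in shLuc.

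**Figure D4:**
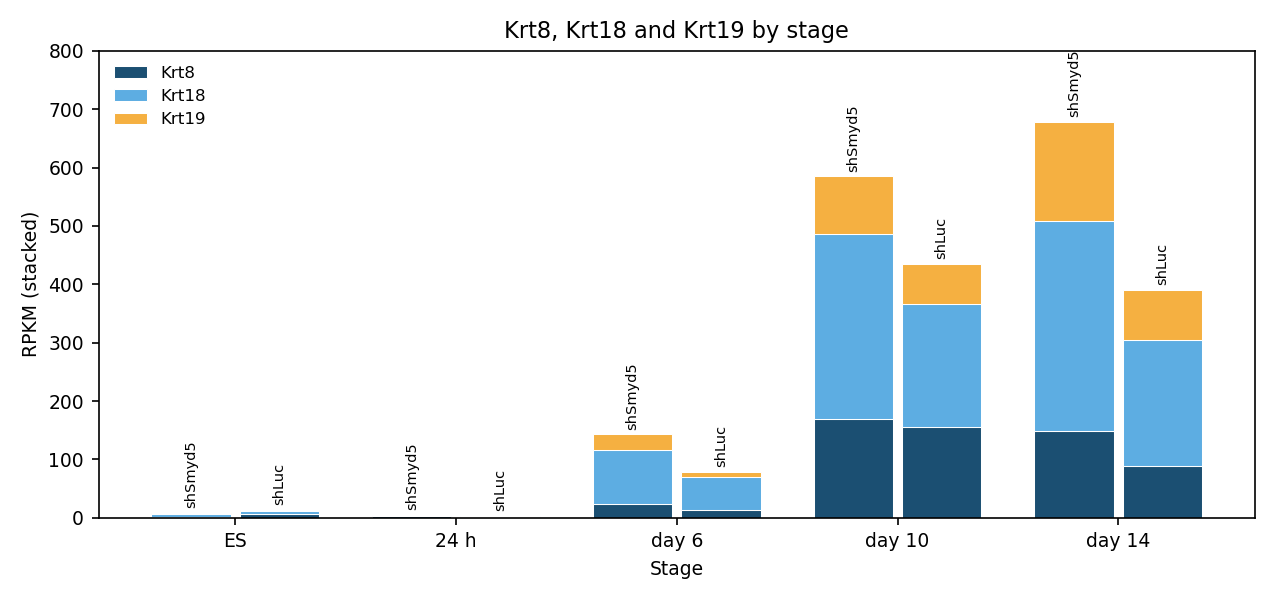
Stacked bars give the RPKM of Krt8, Krt18 and Krt19 at each stage, the left bar of each pair for shSmyd5 and the right bar for shLuc. The sum is higher in shSmyd5 at 24 h (5.31 and 2.95), day 6 (143 and 78.3), day 10 (585 and 435) and day 14 (678 and 390.4), and lower in ES cells (8.64 and 14.0).

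Between the lines all 3 keratins were higher in shSmyd5 at day 6, day 10 and day 14. At 24 h all 3 were under an RPKM of 3 in both libraries, with log2 folds of 0.99 (0.57 to 1.56) for Krt8, 0.35 (-0.14 to 0.91) for Krt18 and 1.86 (0.92 to 4.91) for Krt19, and of 0.39, -0.23 and 1.20 when corrected for GC and length. Krt8 in ES cells was lower in shSmyd5 (159 reads, against 69 in the far smaller shLuc library), with a log2 fold of -1.58 (-2.03 to -1.19) that was -1.01 once corrected for GC and length. At day 6 the log2 fold was 0.81 (0.72 to 0.91) for Krt8, 0.74 (0.69 to 0.80) for Krt18 and 1.51 (1.40 to 1.63) for Krt19. At day 14 it was 0.75 (0.70 to 0.79), 0.73 (0.70 to 0.77) and 0.99 (0.94 to 1.04). At day 10 the 3 values were 0.12, 0.59 and 0.53. As deposited, day 10 thus had the lowest value of the late stages for each gene. Corrected for GC and length, the values of Krt8 at day 6, day 10 and day 14 were 0.71, 0.35 and 0.56, those of Krt18 0.54, 0.75 and 0.58, and those of Krt19 1.31, 0.75 and 0.82, so day 10 was then lowest for Krt8 and Krt19 and highest for Krt18. At 24 h in shLuc, Krt8 and Krt18 had a log2 change over ES cells of -2.37 and -1.69, and of -0.92 and -0.55 once corrected for GC and length, a correction added once the values were known.

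The promoters of Krt8, Krt18 and Cldn6 are printed, which are 3 of the 8 genes that were higher in day 14 EBs than in ES cells. All 3 hold the motif marked in capitals. The windows run from 250 bases before to 50 bases after the start of transcription (RefSeq, build GRCm38.p6), and 7 of the 10 genes had an entry, with 9 windows in all. Capitals mark the E-box CAGGTG, read on either strand (CACCTG on the other), the motif that SNAI1 and ZEB1 are known to bind in the Cdh1 promoter. It was found in 7 of the 9 windows and in 20.2% of 32851 promoters of the same length, and the GC box GGGCGG, which reads CCGCCC on the other strand, in 6 of the 9 and in 35.7%. A match is only a string of letters. Counted from the start of transcription, the motif begins at position -111 in Krt8 and -214 in Krt18, and at -93 and 41 in Cldn6. The 2 windows of Ocln overlap and share a match, so these counts are not over separate stretches. No match in Tjp1 and in the Cldn7 window at chr11:69964529-69964828 says only that the letters are not in those windows. Cdh1, Cdh2 and Krt19 were not among the 7.
Krt8, chr15:102004293-102004592, minus strand: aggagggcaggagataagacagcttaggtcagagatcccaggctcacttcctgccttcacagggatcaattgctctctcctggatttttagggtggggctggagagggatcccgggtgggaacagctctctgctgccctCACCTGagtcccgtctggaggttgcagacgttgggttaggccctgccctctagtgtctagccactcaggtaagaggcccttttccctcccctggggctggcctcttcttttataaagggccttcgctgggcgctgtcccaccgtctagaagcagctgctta
Krt18, chr15:102027966-102028265, plus strand: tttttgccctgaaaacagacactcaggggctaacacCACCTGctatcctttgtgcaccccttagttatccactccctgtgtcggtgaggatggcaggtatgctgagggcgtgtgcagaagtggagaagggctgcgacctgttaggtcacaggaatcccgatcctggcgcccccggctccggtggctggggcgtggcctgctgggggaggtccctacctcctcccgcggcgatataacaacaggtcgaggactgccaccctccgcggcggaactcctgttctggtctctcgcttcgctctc
Cldn6, chr17:23679115-23679414, plus strand: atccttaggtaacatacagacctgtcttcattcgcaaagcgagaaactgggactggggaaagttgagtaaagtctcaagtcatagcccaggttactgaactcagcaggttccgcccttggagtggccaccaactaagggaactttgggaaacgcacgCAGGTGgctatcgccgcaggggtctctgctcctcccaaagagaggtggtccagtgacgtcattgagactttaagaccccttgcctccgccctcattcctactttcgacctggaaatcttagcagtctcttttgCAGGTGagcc

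Counted over the 10 genes at a fold of 2 where either library reached an RPKM of 3, the lines differed in few of them at each stage. In ES cells 0 were higher and 1 lower in shSmyd5 (Krt8), beside 4.52% of 9329 genes higher and 11.3% lower, and 3 of the 10 were under the RPKM limit. At 24 h 2 were higher, Cdh2 and Cldn6, and 0 lower, beside 13.0% of 8354 genes higher and 4.26% lower, and 5 were under the limit. At day 6 1 was higher, Krt19, and 2 lower, Cdh1 and Cldn7, beside 8.18% of 9461 genes higher and 19.4% lower. At day 10 1 was higher, Ocln, and 1 lower, Cdh2, beside 3.15% of 10576 genes higher and 6.51% lower. At day 14 0 were higher and 1 lower, Cdh2, beside 3.17% of 10476 genes higher and 4.07% lower, with Krt19 just under the limit at 1.98-fold.

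The day 6 count depended on the scaling. Genes that reached an RPKM of 3 in both libraries had a median log2 fold of -0.27 by RPKM and 0.08 by TMM at day 6, and of 0.14 and -0.05 at 24 h. With TMM or DESeq2 size factors 6 of the 10 were at least 2-fold higher at day 6, Cdh2, Ocln, Cldn6, Krt8, Krt18 and Krt19, and 0 lower. Over all genes called at day 6, 29.7% were higher in shSmyd5 by RPKM and 58.4% by TMM. By RPKM 774 genes were higher and 1834 lower, and by TMM 1507 and 1073. The day 6 counts of the gene lists are by RPKM only. List genes near the 2-fold limit, such as Fn1 and Cd24a (log2 folds of -1.03 and -1.05), may not keep their calls with TMM. With TMM, DESeq2 or the GC and length correction the log2 fold between the lines changed sign for Cdh1, Cldn6 and Krt18 in ES cells, Krt18 at 24 h and Tjp1 at 24 h and day 14, all of them under 2-fold. Values as deposited gave the members above the RPKM limit (7 in ES cells, 5 at 24 h and all 10 later) a median log2 fold of 0.72 at day 6, against -0.35 for all genes above the RPKM limit. At day 10 it was 0.49 against -0.05, at day 14 0.45 against 0.01, at 24 h 0.65 against 0.17 and in ES cells -0.09 against -0.07. Over all 10 members the median was 0.50 at 24 h and -0.04 in ES cells.

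**Figure D5:**
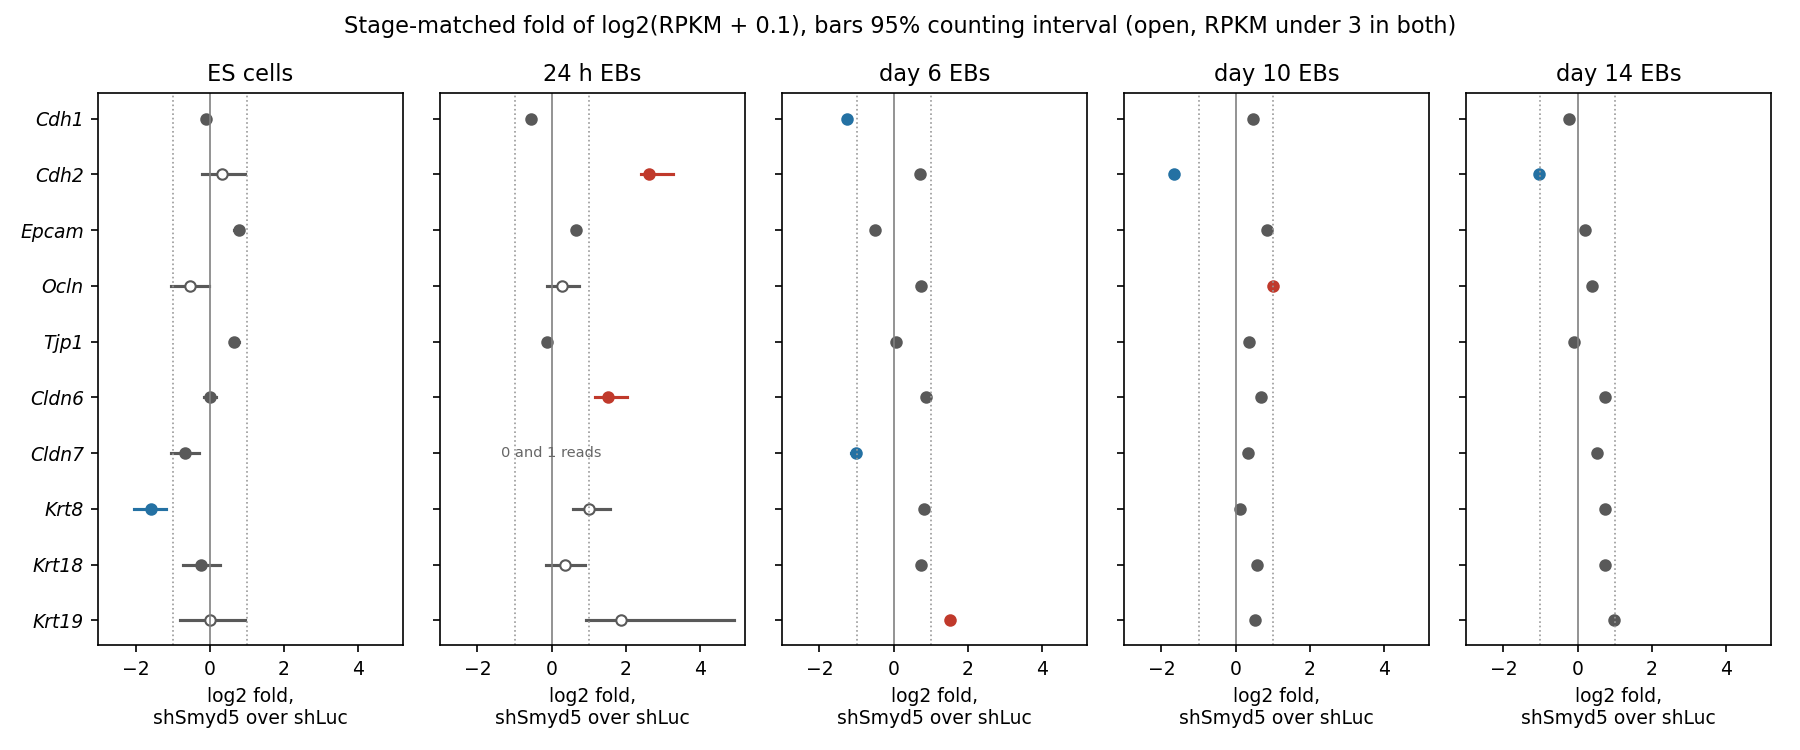
Each panel is a stage and each point the log2 fold of shSmyd5 over shLuc of 1 gene with its 95% counting interval, with dotted lines at 2-fold, open circles where the RPKM was under 3 in both libraries, and colour where the fold passed 2 (red higher, blue lower). Cdh2 lies right of 0 at 24 h (2.61) and left of it at day 10 (-1.66) and day 14 (-1.04), while Cldn6 is right of 0 at every EB stage.

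No gene of the 10 passed the test of a knockdown effect shared by the 5 stages. With the stage as a block, edgeR's quasi-likelihood test called 0 of the 10 and 0 of 12277 genes (0.0% higher and 0.0% lower), 1425 of which had an unadjusted p under 0.05. limma called 0 genes and DESeq2 333. Smyd5 itself had a log2 fold change of -2.63 ± 0.51 (SE, adjusted p = 0.107, lower in 5 of 5 pairs). The nearest of the 10 were Krt19 at 1.09 ± 0.29 and Cldn6 at 0.83 ± 0.22, higher in 5 of 5 pairs, each with an adjusted p of 0.217. DESeq2 called both (adjusted p = 0.0304 and 0.0325), and edgeR without a filter on low genes called Krt19 (0.0463). Krt18 stood at 0.54 ± 0.22, Epcam at 0.46 ± 0.21 and Ocln at 0.48 ± 0.26, each higher in 4 of 5 pairs. Cdh2 at 0.23 ± 0.54 had the widest error of the 10, with 3 pairs higher and 2 lower.

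Other junction genes gave a mixed picture. Of 51 further junction proteins 37 were tested. In day 14 EBs 17 of these were higher and 5 lower than in ES cells (edgeR), beside 25.6% and 20.6% of all genes tested. Those that rose included Dsp, the desmosomal plaque protein desmoplakin (3.66), and the desmosomal cadherin Dsc2 (7.09), and those that fell included Cldn4, Jam2, Pkp4 and Pvrl1. Between the lines at day 6, by RPKM, 1 of 34 was at least 2-fold higher in shSmyd5, the desmosomal protein Perp. The 6 lower ones were Marveld3, Pard3, Jam2, Mllt4, Jam3 and Cdh3, beside 8.18% higher and 19.4% lower of all genes. Of these Mllt4, Jam3 and Cdh3 lay near the limit, with log2 folds of -1.09, -1.08 and -1.06. The lowest fold was that of Jam2, an adhesion molecule of the immunoglobulin family, at day 10 (0.412 RPKM in shSmyd5, 3.33 in shLuc, log2 fold -2.75), and the endothelial claudin Cldn5 was lower there too (1.31 and 6.82). Of 28 other keratins at most 4 reached an RPKM of 3 in any pair. Krt17 and Krt42 were lower in shSmyd5 ES cells (2.78 and 5.63 RPKM, against 12.8 and 18.5), in the same direction as Krt8 and as 11.3% of all genes. Their log2 folds of -2.16 and -1.70 were -1.56 and -1.02 once corrected for GC and length. Krt23 was higher in shSmyd5 at day 14 (3.54 and 0.469). Krt7 and Krt20, keratins of simple epithelia, were higher and Krt17 and Krt42 lower in day 14 EBs than in ES cells over both lines.

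Among 27 regulators of epithelial genes and epithelial surface enzymes, day 6 gave 2 of 19 at least 2-fold higher in shSmyd5 and 6 lower, beside 8.18% and 19.4% of all genes. The higher ones were Klf4, a zinc finger factor of ES cells and epithelia (21.6 RPKM in shSmyd5, 3.08 in shLuc), and the serine protease Tmprss2 (11.3 and 2.17). The lower ones were Rab25, a small GTPase of epithelial vesicle traffic (9.84 and 29.2), Tfap2c, Elf3, Prom1, Grhl2 and Cd24a. At day 10 Klf4, Trp63, Klf5 and Elf3 were higher in shSmyd5 and none lower of 19 (3.15% and 6.51% of all genes). At day 14 Klf4, Elf3 and Ap1m2 were higher and Tfap2a lower of 20 (3.17% and 4.07%). So Elf3 was lower in shSmyd5 at day 6 and higher at day 10 and day 14, as was the sum over all 27 genes (388, 722 and 812 RPKM in shSmyd5, against 530.4, 461 and 696 in shLuc).

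Across the 10 libraries, which share their lines and stages, the keratins ran together. The Pearson correlation of log2 of RPKM plus 0.1 was 0.97 to 0.99 between the 3 keratins and 0.96 to 0.99 between Ocln and each of them, and that of Cldn6 with Cldn7 was 0.95. Cdh1 had its highest value with Epcam (0.57) and 0.08 with Cdh2, while Cdh2 had 0.86 to 0.88 with the keratins. Among the 9788 genes whose mean RPKM reached 3, those most like Krt8 were Vasn, Ihh, Apom, Wdr11 and Vamp8 (0.99 each). Those most like Cdh2 were Sertad4, Ptpn13, Ssbp3, Tsc22d3 and Zfp867 (0.95 to 0.97), and those most like Cdh1 were Tpd52, Mllt10, Kcnk1, Hltf and Prrg4 (0.80 to 0.86). With 10 libraries and a common time course, such values are a description of shared profiles only.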

How the data were processed

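Single-end reads were mapped by the authors to mm9 (Bowtie2 and CASAVA per the submitters' processing notes, versions not given in the sources used here) and listed per RefSeq transcript as deposited read counts and RPKM. For each of 22878 genes the transcript with the highest mean read count of 29257 was kept, which held 3895537 to 43377815 reads per library. Stage-matched folds were log2 of RPKM plus 0.1, shSmyd5 less shLuc, with exact binomial 95% intervals of the reads. They were counted at 2-fold and an RPKM of at least 3, the fold and RPKM limits of the study's methods. The study's false discovery rate cutoff was not applied to these counts. The log fold understates the change of low genes. Reads were tested with edgeR 4.0.16 (TMM, quasi-likelihood, stage and line as terms, 4 residual degrees of freedom, Benjamini-Hochberg at 0.05 over the 12277 genes whose mean RPKM reached 1), where each pair of stages or lines serves as a repeat, and with DESeq2 1.42.0 and limma 3.58.1 beside it. The edgeR fit was tested on simulated counts, which were drawn with less spread than these data have. P-values measure the spread between these libraries. Gene positions are those of GENCODE M1 on NCBIM37 (mm9), and promoter windows those of RefSeq on GRCm38.p6. Folds were corrected by a spline on GC and on log length (20234 genes with a sequence). Named genes were the 10 members, Smyd5, up to 3 genes per list with the highest fold past 2 and the 5 most correlated genes of Cdh1, Cdh2 and Krt8, and others named in the lists of counts were picked after their values were seen. The members and lists were chosen with earlier results of these data known. A junction gene counted in its list is not reported here by name. Lists of cardiac, trophoblast and endothelial markers were counted too. At day 6 the cardiac list had 1 gene with an RPKM of at least 3, trophoblast 4 and endothelial 1. Of these 0, 3 and 1 differed at least 2-fold, beside 8.18% of all genes higher in shSmyd5 and 19.4% lower. At day 10, 5 of 6 cardiac markers were higher in shSmyd5 and 0 lower, beside 3.15% and 6.51% of all genes. Endothelial markers had 0 of 7 higher and 2 lower there, and trophoblast markers 0 of 6 and 0. Day 14 gave 0 higher and 1 lower of 8 cardiac, 0 and 3 of 7 endothelial and 0 and 0 of 5 trophoblast markers (3.17% and 4.07% of all genes). Alternatives changed the pseudocount, filter, scaling, test, transcript choice, block and libraries. Other software was matplotlib 3.10.9, scikit-learn 1.9.0, scipy 1.17.1, pandas 2.3.3 and numpy 2.4.6 under Python 3.11.15, and R 4.3.3.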

Additional observations from a re-analysis of the deposited data

Results flagged for a closer look

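Cdh2 differed between the lines in opposite directions at different stages. Its log2 fold of shSmyd5 over shLuc was 2.61 at 24 h, and it was -1.66 at day 10 and -1.04 at day 14. With 1 library per condition the difference between the stages was not tested.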

How the results depend on the processing

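The stage-matched counts moved with the RPKM limit, the scaling and the base composition correction. Over all genes at least 2-fold different, an RPKM limit of 10 gave 884, 654, 1425, 464 and 332 genes in ES cells, 24 h, day 6, day 10 and day 14 EBs, and no limit gave 3059, 4467, 5419, 2665 and 2277. Corrected for GC and length, 397 genes passed in ES cells and 796 at 24 h. Of the 10 members, the limit of 10 left 0 in ES cells and 0 at 24 h, and the correction gave 2 in ES cells (Krt8 and Epcam) and 1 at day 10. A pseudocount of 1 gave 1 at day 10 and 0 at day 14, and TMM or DESeq2 size factors gave 6 at day 6. TMM moved the share of higher genes among those called to 42.2% in ES cells, 54.3% at 24 h and 58.4% at day 6 (28.6%, 75.3% and 29.7% as deposited). The difference in the log2 Cdh1 to Cdh2 ratio at 24 h was -2.18 with a pseudocount of 1, and kept its sign at every stage under each alternative. For the shared knockdown effect DESeq2 called 333 genes and 2 members, edgeR without a filter 163 and 1, and the 3 late stages alone 79 and 0, while leaving out 1 pair gave 0 to 6 genes and 0 members. Without the stage block the log2 fold change was -0.44 for Cdh2 and 0.17 for Cldn7, and -0.57 and 0.068 over the late stages alone, all reversed against the value with all stages. Leaving out 1 pair gave -0.32 to 0.72 for Cdh2 and -0.38 to 0.078 for Cldn7. Leaving out 1 library gave 6393 to 8309 genes and 8 to 10 members for the change over stages, 2170 to 5884 and 6 to 10 for day 6 over ES cells, 3174 to 6286 and 6 to 8 for day 14 over ES cells, and -0.13 to 0.22 for Cdh1 at day 14 over ES cells. The comparison of the lines pairs the libraries by stage, and no fit with a replicate number as a block was made because the labels give none. The shallowest library, shLuc ES cells, sets the width of the ES cell intervals.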
